A study of Homo sapiens with 4 samples.

Results

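Mitochondria hold their own ribosome, the mitoribosome, and its protein parts are encoded by nuclear genes whose symbols begin with MRPL or MRPS. The members described here are the 78 genes, of 17791 in the deposited count table, whose symbol is MRPL or MRPS followed by a number and at most one letter from A to C. There are 49 MRPL and 29 MRPS symbols. In the assembled ribosome 51 of the proteins lie in the large subunit, MRPS18A and MRPS30 among them despite their names, and 26 lie in the small subunit. MRPS36 carries the name but is known from later work as a subunit of the 2-oxoglutarate dehydrogenase complex, and it is given separately. All 78 members reached 1 CPM (counts per 1000000 of the scaled library size) in at least 1 library and were measured among 14851 such genes.

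The libraries came from engineered prostate cancer tissues (EPCaTs), gels in which PC-3 and BJ-5ta cells were seeded together at 5 to 1, with 20 × 1000000 cells per mL, and sampled on day 15. PC-3 is an established prostate cancer line and BJ-5ta an immortalised line of normal human fibroblasts. The 3 gels were PEG-fibrinogen alone (PF), PF with 2% w/v excess PEG-diacrylate (PF+2%PEGDA) and PF with 3% (PF+3%PEGDA), made to vary tissue stiffness. The reference was a flat 2D coculture of both lines, for which the labels give neither a seeding ratio nor a day. No group received a drug. RNA of each EPCaT library was pooled from more than 2 tissues, all were kept in PC-3 medium, and the kit did not keep strand. With 1 library per group there were no replicates, so no test between groups was possible. The intervals given below cover counting error only, and the spread between tissues or cultures is unknown.

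The mitoribosome translates the few messages that mitochondrial DNA encodes, all of them for membrane subunits of the oxidative phosphorylation complexes. Its RNAs are transcribed inside the organelle, whereas its proteins are translated in the cytosol and imported, so that assembly draws on both genomes. Some of its proteins descend from bacterial ribosomal proteins, and others were added later in the history of mitochondria. The deposited count table held no gene under the 13 MT- symbols of the messages of mitochondrial DNA, so those messages could not be measured here.

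The members were scattered over 21 chromosomes, so what they shared in position and sequence was looked for at their start sites. RefSeq promoter windows (build GRCh38.p14, 250 bases before to 50 after the start) were matched for 69 of the 78. Searched on both strands, the ETS-type motif CCGGAAG, bound by GABP among other factors, was present in 29 of 69 (42.0%), against 10.7% of all 27305 windows and 18.3% of the 11452 windows of measured genes. The YY1-type motif AAGATGGC was present in 20 of 69 (29%), against 3.0% of all windows and 5.1% of those of measured genes. Matches of the 2 kinds did not overlap each other. The sites below are those of members that lay low in the EPCaTs or that stand as a contrast, each cut to the match and up to 8 bases on either side, 5′ to 3′ on the gene's strand, with the match in capitals.
MRPS12, ETS-type, chr19:38930931-38930953, plus strand: gatagcgcCCGGAAGaggctaga
MRPL40, ETS-type, chr22:19432526-19432548, plus strand: gcgcacgcCCGGAAGcggcgagg
MRPS23, ETS-type, chr17:57850044-57850066, minus strand: agcagccgCTTCCGGttccggta
MRPL30, ETS-type, chr2:99181031-99181053, plus strand: ctgctgcgCTTCCGGgaagtggt
MRPL58, ETS-type, chr17:75012654-75012676, plus strand: agcgcccgCCGGAAGcagtcgca
MRPL46, YY1-type, chr15:88467365-88467388, minus strand: gagaacgaAAGATGGCggcgcccg
MRPL38, YY1-type, chr17:75904863-75904886, minus strand: ccggagggAAGATGGCggcgccct
MRPS18B, YY1-type, chr6:30617855-30617878, plus strand: cgtacgtcAAGATGGCggcgtctg
MRPL45, YY1-type, chr17:38297173-38297196, plus strand: gcgggaacAAGATGGCagccccca
MRPL20, YY1-type, chr1:1407263-1407286, minus strand: acccgggcAAGATGGCagcggcgc
MRPS18A, YY1-type, chr6:43687767-43687790, minus strand: ggtttttgAAGATGGCggccctca

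The motifs differed in where they lay. Of 21 YY1-type matches, 17 were on the gene's own strand and 15 began after the transcription start, with a median first base at position 10. ETS-type matches lay mostly before the start, with 6 of 39 after it and a median first base at position -22. Other motifs were about as frequent in members as in measured genes, or less so. The NRF1-type motif was present in 11.6% against 11.2%, the SP-type motif GGGCGG in 60.9% against 68.9%, the CCAAT box (CCAAT) in 29% against 36.6% and the TATA box (TATAAA) in 2.9% against 6.1%. A match describes letters in this window and not a bound site.

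Many members sat back to back with another gene. A gene on the opposite strand that began within 1000 nt upstream was found for 17 of 78 members (21.8%), against 1229 of 13235 (9.29%). MRPL46 and MRPS11 were such a pair themselves, with starts 34 nt apart on chromosome 15. MRPL36 began 34 nt from NDUFS6 and MRPL47 began 36 nt from NDUFB5, both complex I subunits. MRPL18 began 63 nt from TCP1, a subunit of the cytosolic chaperonin.

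Summed, the members were lower in each EPCaT library than in 2D and lowest in the PF gel. Their CPM values summed to 3328 with PF, 4185 with 2% PEGDA, 4061 with 3% PEGDA and 4976 in 2D. As a share of all counts this was 0.354%, 0.424%, 0.402% and 0.467%. The median member stood at 34.8 CPM with PF, 42.9 with 2% PEGDA, 41.9 with 3% PEGDA and 52.6 in 2D. The 2D library held the highest value of 61 of the 78 members and the PF library the lowest value of 58, against 36.4% and 28.5% of all measured genes. All members together rested on 55345 to 73043 counts per library, and a single count was worth 0.0600 to 0.0734 CPM.

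Markers of the fibroblasts also lay lower in the EPCaTs. Of 13 fibroblast markers measured, 12 lay below 2D in each EPCaT, with intervals that excluded equality. With PF the remaining marker was higher, at a log2 ratio of 0.30. In each PEGDA gel the interval of the remaining marker included equality. Summed over all 14 listed, their level was 852, 906 and 651 CPM in the 3 EPCaTs and 4370.0 in 2D. None of the 13 measured was at 0. The 11 epithelial markers summed to 5441, 6282 and 5904 CPM in the EPCaTs and 4062 in 2D. By the interval 8, 9 and 8 of them were higher (39.3%, 35.5% and 35.7% of all measured genes). Lower by the interval were 2, 1 and 2 (37.6%, 35.8% and 35.9%). Their median log2 ratios to 2D were 0.73, 0.59 and 0.23. CTNNA1, a gene deleted in PC-3 and whose transcripts should come mainly from the fibroblasts, had 5.40 CPM with PF, 6.18 with 2% PEGDA, 8.29 with 3% PEGDA and 33.1 in 2D. In bulk RNA, fewer cells of a type and less RNA per cell cannot be told apart, and the part of the cell mix in the members' ratios was not tested.

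**Figure D1:**
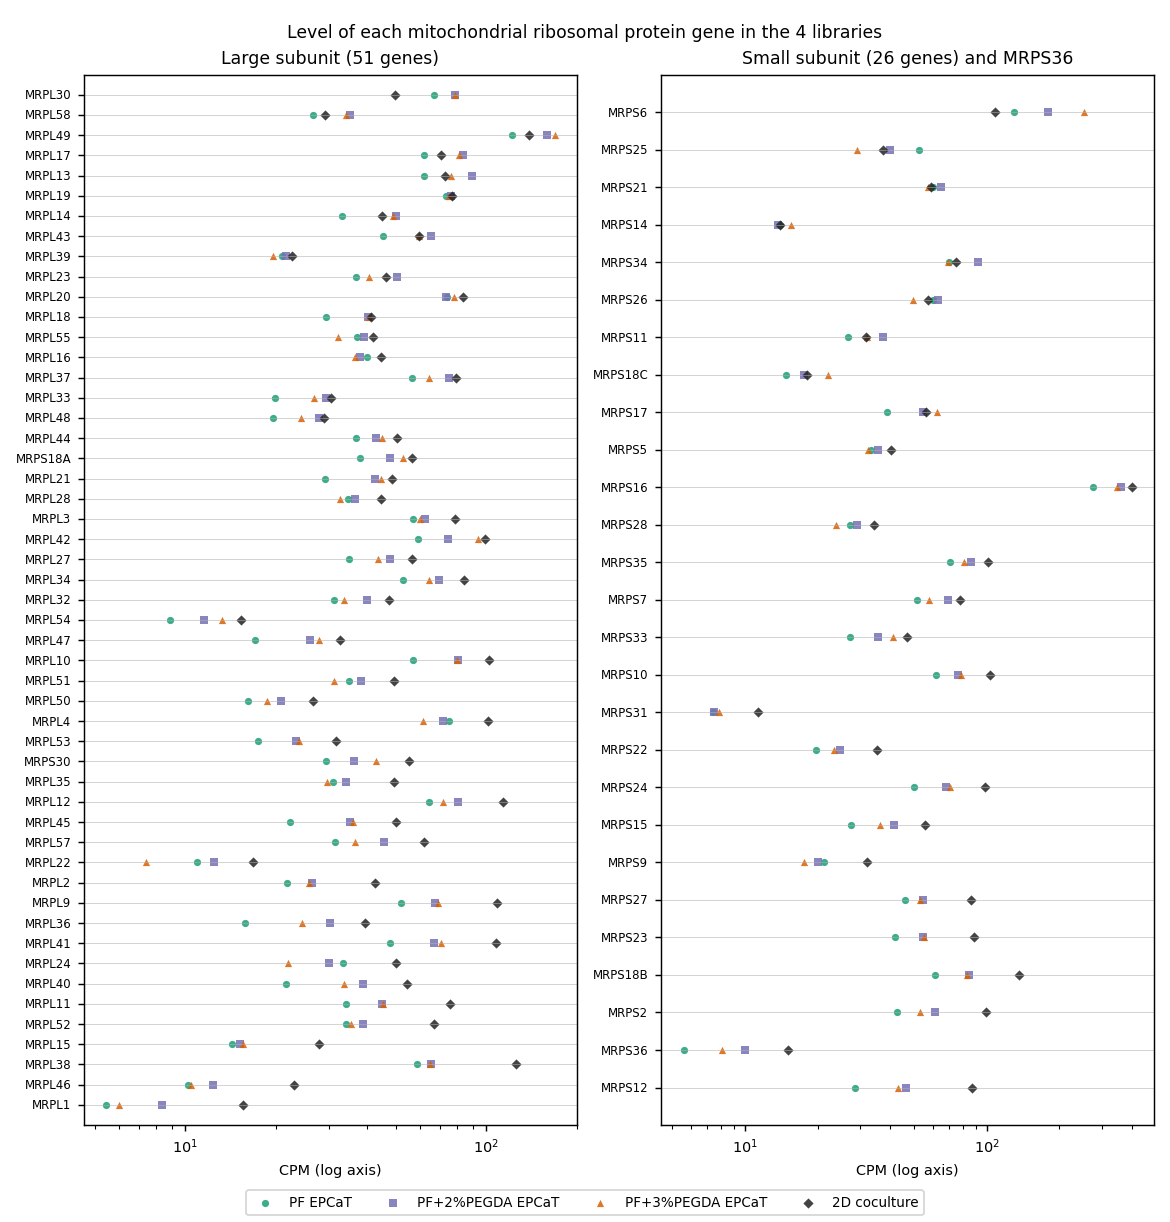
Level of each member in the 4 libraries, in CPM on a log axis, with large subunit genes on the left and small subunit genes and MRPS36 on the right. Members are ordered by the mean log2 ratio of the 3 EPCaTs to 2D, and the 2D diamond lies to the right of the EPCaT symbols in most rows but to the left of them for MRPL30 and MRPS6 at the top.

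Levels were compared between members only after division by transcript length. By the mean over the 4 libraries, MRPS16, a small subunit protein with a bacterial counterpart, was the most abundant at 399 CPM per kb. It was followed by MRPL49 at 293, MRPS6 at 169, MRPL30 at 122 and MRPL20 at 107 CPM per kb. The lowest were MRPL22 at 3.92, MRPS31 at 5.83 and MRPL1 at 5.94 CPM per kb. The length used was that of the annotated coding isoform of median length, so these levels depend on which isoform was expressed. Other genes also overlap the exons of the most abundant members. The largest overlap was 14.1% of exonic bases for MRPS16, 11.6% for MRPL49, 6.8% for MRPS6, 19.5% for MRPL30 and 10.5% for MRPL20. The part of these neighbours in the levels was not tested. MRPS16 itself had 276 CPM with PF, 361 with 2% PEGDA, 346 with 3% PEGDA and 399 in 2D, an order over the libraries like that of the summed members.

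Against the 2D coculture, the members lay lowest in the PF EPCaT. The median log2 ratio of the 78 members was -0.61, with a range of -1.61 to 0.50, beside 0.02 for all measured genes. By the rule used throughout, a ratio of at least 2-fold with a 95% interval that excluded equality, 15 members were lower and 0 higher. The shares of all measured genes were 12.0% lower and 16.5% higher. By the interval alone, at any size, 67 members were lower (37.6% of all measured genes) and 3 were higher (39.3%), and for 8 the interval included equality. Scaled by total counts alone, 6 members rather than 15 were lower past 2-fold, and the median member stood at -0.43 where the median of all measured genes stood at 0.20.

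The members furthest below 2D came from both subunits. MRPS12, a protein of the decoding centre of the small subunit, had 28.5 CPM with PF, 46.4 with 2% PEGDA, 42.9 with 3% PEGDA and 87.3 in 2D. The 2D value was the highest and the PF value the lowest, and PF against 2D was lower by 3.06-fold (95% counting interval 2.75 to 3.41). MRPL1, of the stalk through which spent tRNA leaves the large subunit, had 5.46 CPM with PF, 8.37 with 2% PEGDA, 6.02 with 3% PEGDA and 15.5 in 2D. It was 2.84-fold (95% counting interval 2.22 to 3.67) lower in PF than in 2D, and both PEGDA libraries also lay below 2D. MRPS12 exons are overlapped for 16.3% of their bases by SARS2 on the other strand, whereas no other gene overlapped those of MRPL1.

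MRPL46 and MRPL38, proteins specific to mitochondria that belong to the large subunit, were about equally low in every gel. MRPL46 had 10.2 CPM with PF, 12.4 with 2% PEGDA, 10.4 with 3% PEGDA and 22.9 in 2D. Its PF value was 2.24-fold (95% counting interval 1.86 to 2.71) below 2D, and its interval for PF+3%PEGDA against PF, a ratio of 1.02 to 1 (95% counting interval 0.812 to 1.28), included equality. Another annotated gene on the same strand overlaps 11.3% of the exonic bases of MRPL46. MRPL38 had 58.7 CPM with PF, 65.4 with 2% PEGDA, 64.9 with 3% PEGDA and 125 in 2D. It was 2.14-fold (95% counting interval 1.98 to 2.31) lower in PF than in 2D, and 37.5% of its exonic bases lie within exons of another annotated gene on the same strand. MRPS36, the member of the 2-oxoglutarate dehydrogenase complex, had 5.58 CPM with PF, 9.99 with 2% PEGDA, 8.07 with 3% PEGDA and 15.1 in 2D, so that PF was 2.69-fold (95% counting interval 2.11 to 3.48) below 2D and 2% PEGDA lay between them.

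The other large subunit members past 2-fold in PF against 2D were MRPL40, MRPL36, MRPL41, MRPL45, MRPL11 and MRPL9. MRPL40, of the central protuberance, had 21.6 CPM with PF, 38.8 with 2% PEGDA, 33.7 with 3% PEGDA and 54.6 in 2D and was 2.52-fold (95% counting interval 2.23 to 2.87) lower in PF than in 2D. MRPL36, a small protein kept from bacteria, had 15.8 CPM with PF, 30.1 with 2% PEGDA, 24.4 with 3% PEGDA and 39.6 in 2D, and PF was 2.50-fold (95% counting interval 2.16 to 2.90) lower. Both had PEGDA values that lay nearer to 2D than the PF value did. MRPL45, which sits where the new chain leaves the ribosome, had 22.3 CPM with PF, 35.1 with 2% PEGDA, 35.95 with 3% PEGDA and 50.1 in 2D. MRPL11, of the base of the factor-binding stalk, had 34.3 CPM with PF, 44.8 with 2% PEGDA, 45.5 with 3% PEGDA and 75.9 in 2D. In both, PF was lowest and 2D highest. MRPL41, a protein specific to mitochondria, had 47.9 CPM with PF, 67.00 with 2% PEGDA, 70.6 with 3% PEGDA and 108 in 2D, and MRPL9, which has a bacterial counterpart, had 52.2 CPM with PF, 67.6 with 2% PEGDA, 68.97 with 3% PEGDA and 109 in 2D. Their log2 ratios in PF against 2D were -1.17 and -1.06. With the trends on transcript length and GC content removed they were -0.86 and -0.49, short of 2-fold. OAZ3 on the other strand overlaps 18.4% of the exonic bases of MRPL9.

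In the small subunit, MRPS2, MRPS18B, MRPS23 and MRPS15 also passed 2-fold. MRPS2 had 42.6 CPM with PF, 60.9 with 2% PEGDA, 53.1 with 3% PEGDA and 99.8 in 2D and was 2.34-fold (95% counting interval 2.14 to 2.57) lower in PF than in 2D. MRPS23, a protein specific to mitochondria, had 41.9 CPM with PF, 54.4 with 2% PEGDA, 54.95 with 3% PEGDA and 88.4 in 2D and was 2.11-fold (95% counting interval 1.93 to 2.32) lower. MRPS15 had 27.6 CPM with PF, 41.5 with 2% PEGDA, 36.3 with 3% PEGDA and 55.6 in 2D, with a PF value 2.01-fold (95% counting interval 1.79 to 2.26) below that of 2D. In each of these the PF library was lowest, the PEGDA libraries intermediate and the 2D library highest.

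The subunits had similar medians. In PF against 2D the median log2 ratio was -0.62 over 51 large subunit genes and -0.56 over 26 small subunit genes. Past 2-fold 9 (17.6%) and 5 (19.2%) of them were lower, against 12.0% of all measured genes. By origin, the medians were -0.58 for 45 genes counted as having a direct bacterial counterpart and -0.73 for 32 counted as mitochondrial. The 32 include MRPS18A and MRPS18B, which resemble a bacterial protein but do not hold its place in the ribosome. Both differences between medians were small beside the spread within each group, which reached from -1.50 to 0.43 in the large subunit and from -1.61 to 0.50 in the small.

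The PEGDA gels lay closer to 2D. In PF+2%PEGDA against 2D the median member had a log2 ratio of -0.33, and 0 members were lower and 0 higher past 2-fold, against 9.45% and 12.4% of measured genes. By the interval alone 54 members were lower (35.8% of measured genes) and 10 higher (35.5%). In PF+3%PEGDA against 2D the median was -0.38, with 5 members lower (10.4% of measured genes) and 1 higher (12.1%) past 2-fold. Both counts past 2-fold were smaller shares of the members than of all measured genes. By the interval alone 55 were lower (35.9%) and 7 higher (35.7%). Each of these comparisons uses the same 2D library as the PF comparison, so they are not independent of it.

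Of the 5 members lower past 2-fold in PF+3%PEGDA against 2D, MRPL1, MRPS12 and MRPL46 are described above. MRPL24, a protein near the exit of the large subunit's tunnel, had 33.5 CPM with PF, 30.02 with 2% PEGDA, 21.9 with 3% PEGDA and 49.9 in 2D. It was 2.27-fold (95% counting interval 1.99 to 2.61) lower in PF+3%PEGDA than in 2D, and its PF value was the highest of the 3 gels. MRPL22, which lines the same tunnel, had 10.9 CPM with PF, 12.4 with 2% PEGDA, 7.41 with 3% PEGDA and 16.8 in 2D and was 2.26-fold (95% counting interval 1.79 to 2.89) lower. It was lowest in that gel among the 4 libraries.

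A few members went against the group. MRPS6, a small subunit protein, was the one member higher past 2-fold in any comparison. It had 129 CPM with PF, 179 with 2% PEGDA, 254 with 3% PEGDA and 108 in 2D, and the 4 counting intervals did not overlap. PF+3%PEGDA stood above 2D by 2.35-fold (95% counting interval 2.21 to 2.50) and PF above 2D by 1.20-fold (95% counting interval 1.12 to 1.28). MRPL30, of the large subunit, had 67.1 CPM with PF, 78.7 with 2% PEGDA, 78.5 with 3% PEGDA and 49.6 in 2D, so every EPCaT lay above 2D. Its ratio of PF+2%PEGDA to 2D was 1.59-fold (95% counting interval 1.45 to 1.74). Another annotated gene on the same strand, AC079447.1, covers 19.5% of its exonic bases.

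MRPL58, MRPL49 and MRPL17 completed the 5 members with the highest mean log2 ratio of the EPCaTs to 2D, at 0.12, 0.09 and 0.09. MRPL58 can release unfinished chains from stalled ribosomes and is built into the large subunit. It had 26.5 CPM with PF, 35.3 with 2% PEGDA, 34.2 with 3% PEGDA and 29.1 in 2D, with PF and 2D within counting error of each other. MRPL49 had 121 CPM with PF, 159 with 2% PEGDA, 169 with 3% PEGDA and 139 in 2D, and both PEGDA libraries lay above 2D while PF lay below it. MRPL17, kept from bacteria, had 62.1 CPM with PF, 83.9 with 2% PEGDA, 80.9 with 3% PEGDA and 70.6 in 2D. On the other strand, SYVN1 overlaps 11.6% and FAU, a cytosolic ribosomal protein gene, 9.2% of the exonic bases of MRPL49. The part of these neighbours in its values was not tested.

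**Figure D2:**
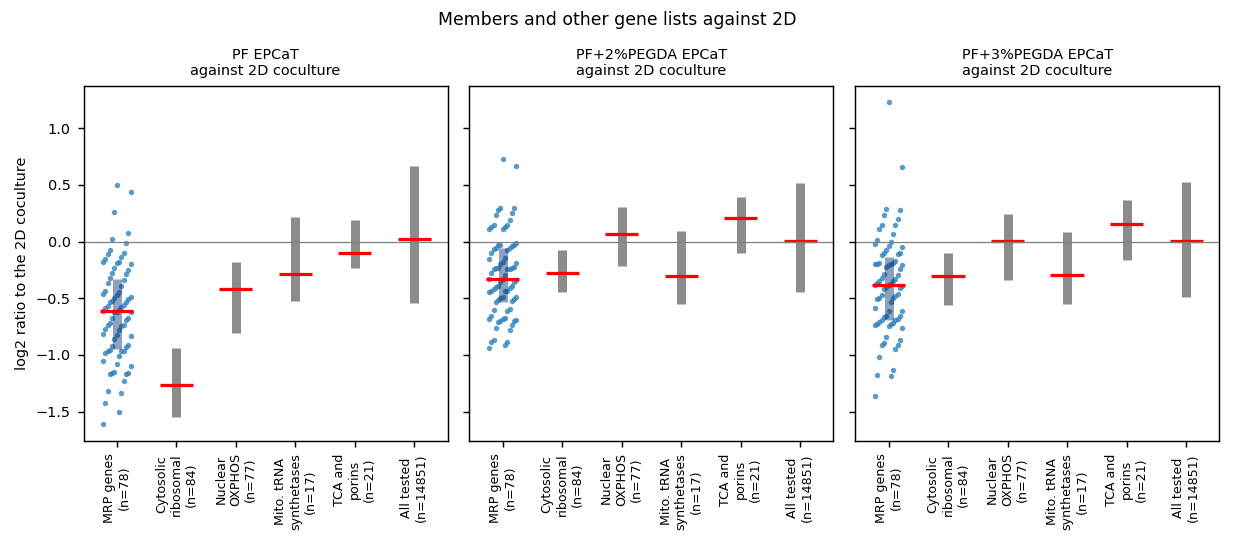
log2 ratio to the 2D coculture for each EPCaT, with 1 blue point per member, red lines at the median and grey bars from the first to the third quartile of each gene list. The members' median was -0.61, -0.33 and -0.38 from left to right, below that of all measured genes in each panel and below that of the nuclear oxidative phosphorylation and TCA lists.

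Adding PEGDA to the gel was compared with the PF gel, and there the members were higher on balance. In PF+2%PEGDA against PF the median log2 ratio was 0.38, beside 0.00 for all measured genes. The range over members was -0.39 to 0.93. By the interval alone 56 members were higher (29.9% of measured genes) and 1, MRPS25, lower (29.2%). Past 2-fold, 0 were higher and 0 lower, against 2.98% and 5.56%. In PF+3%PEGDA against PF the median was 0.28, with 50 members higher (32.0%) and 7 lower (31.8%) by the interval, and 0 and 0 past 2-fold (3.64% and 7.49%). With the trend on transcript length and GC content removed, these medians were 0.19 and 0.09, with all measured genes at 0.01 in each.

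The members that differed most between PF+3%PEGDA and PF were MRPS6, MRPL47, MRPL45, MRPS17 and MRPL42 on the higher side. MRPS6 was higher by 1.96-fold (95% counting interval 1.86 to 2.07). MRPL47, of the large subunit, had 17.04 CPM with PF, 25.9 with 2% PEGDA, 27.8 with 3% PEGDA and 32.6 in 2D, and 3% PEGDA exceeded PF by 1.63-fold (95% counting interval 1.40 to 1.91). MRPS17 had 38.6 CPM with PF, 54.8 with 2% PEGDA, 62.1 with 3% PEGDA and 56.00 in 2D and differed by 1.61-fold (95% counting interval 1.45 to 1.78). The gene AC092647.5 overlaps 21.8% of MRPS17 exonic bases on the same strand, and 27.7% of MRPS17 50-base stretches also occur in other genes. MRPL42 had 59.2 CPM with PF, 74.3 with 2% PEGDA, 93.6 with 3% PEGDA and 98.8 in 2D. For MRPS6, MRPS17 and MRPL42 each step of PEGDA gave a ratio whose interval lay above equality, and for MRPL47 and MRPL45 only the first step did. MRPL45 values are given above, its ratio was 1.61-fold (95% counting interval 1.41 to 1.85), and 16.4% of its 50-base stretches also occur in other genes, mainly the pseudogene MRPL45P2.

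On the lower side were MRPS25, MRPL24, MRPL22, MRPL4 and MRPS26. MRPS25, a small subunit protein of mitochondrial origin, had 52.4 CPM with PF, 40.01 with 2% PEGDA, 29.1 with 3% PEGDA and 37.1 in 2D. It was highest in the PF gel and lowest with 3% PEGDA, where it was 1.799-fold (95% counting interval 1.60 to 2.03) lower than in PF. MRPL4, which lines the exit tunnel, had 74.9 CPM with PF, 71.8 with 2% PEGDA, 61.4 with 3% PEGDA and 101 in 2D, and MRPS26 had 60.2 CPM with PF, 63.2 with 2% PEGDA, 49.6 with 3% PEGDA and 57.2 in 2D. For both, PF+2%PEGDA was within counting error of PF and PF+3%PEGDA was below PF, by 1.22-fold (95% counting interval 1.12 to 1.33) for MRPL4.

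For MRPS6 and MRPS25, the members furthest apart in PF+3%PEGDA against PF, a stretch before the RefSeq start is printed. A link between these letters and the ratios was not tested. Both stretches lie clear of exons in GENCODE release 29, read 5′ to 3′ on the gene's strand (GRCh38.p14, RefSeq) and hold no ETS-type, YY1-type or NRF1-type match. That of MRPS6 spans chr21:34073328-34073522 on the plus strand, bases -250 to -56 from the start, and that of MRPS25 chr3:15065336-15065535 on the minus strand, bases -220 to -21. The GENCODE span of MRPS6 begins before its RefSeq start, at 34073224, so its stretch lies inside that span, whereas that of MRPS25 lies outside its gene.
MRPS6: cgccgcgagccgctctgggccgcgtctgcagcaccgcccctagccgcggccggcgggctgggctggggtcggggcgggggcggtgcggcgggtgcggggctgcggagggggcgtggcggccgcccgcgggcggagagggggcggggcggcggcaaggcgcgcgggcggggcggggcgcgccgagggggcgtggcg
MRPS25: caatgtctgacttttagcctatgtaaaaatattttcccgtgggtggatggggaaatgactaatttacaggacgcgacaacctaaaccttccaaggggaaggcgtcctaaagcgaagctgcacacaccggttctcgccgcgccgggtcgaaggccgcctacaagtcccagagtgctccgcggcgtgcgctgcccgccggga

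Between the PEGDA gels the members differed least. In PF+3%PEGDA against PF+2%PEGDA the median log2 ratio was -0.09, and 0 members were higher and 0 lower past 2-fold (1.87% and 2.39% of measured genes). By the interval alone 7 were higher (20.1%) and 25 lower (19.5%), and 46 included equality. MRPL22 was furthest down at -0.74 on the log2 scale and MRPS6 furthest up at 0.51.

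Over all measured genes, transcript length moved most with the ratios that involve the PF library, and members are short. Their median length was 1081 nt, against 2220 nt over 14149 measured genes with a length. In PF against 2D, measured genes under 750 nt had a median log2 ratio of -0.25, and those of 6000 nt or more had one of 0.41. The same classes stood at -0.035 and 0.146 with 2% PEGDA against 2D and at -0.028 and 0.153 with 3%. In PF+3%PEGDA against PF+2%PEGDA they stood at -0.014 and 0.006. Within each length class the members in PF against 2D lay below other genes. Their median was -0.66 under 750 nt (18 members), -0.57 from 750 to 1500 nt (41 members, with all measured genes at -0.21) and -0.75 from 1500 to 3000 nt (17 members, with all at -0.02). With 3% PEGDA against PF the members' medians in these classes were 0.41, 0.24 and 0.32, and those of all measured genes 0.21, 0.20 and 0.01. With the trends on length and GC content removed, some named members were no longer past 2-fold below 2D. In PF these included MRPL9, MRPL41, MRPL46, MRPS15 and MRPS23, at log2 ratios of -0.49, -0.86, -0.87, -0.82 and -0.91. In PF+3%PEGDA MRPS12 then stood at -0.64. RNA integrity is not given in the sources used here, and its part in the trend was not tested.

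**Figure D3:**
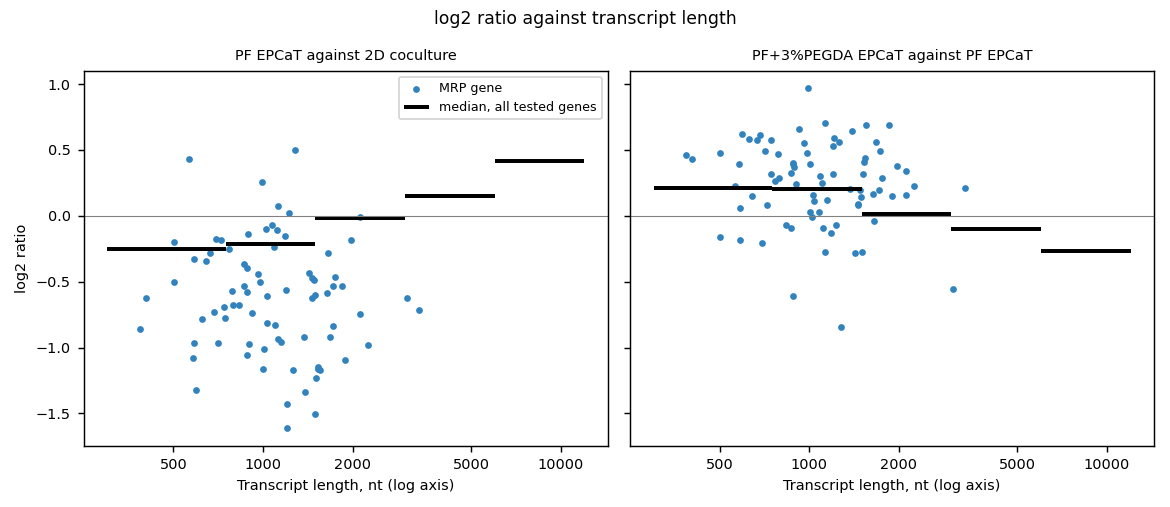
log2 ratio of each member (blue points) against transcript length in nt on a log axis, for the PF EPCaT against 2D on the left and PF+3%PEGDA against PF on the right, with black bars at the median of all measured genes in each length class. Short genes lay at -0.25 and long ones at 0.41 on the left and the order is the reverse on the right, and most members lay below the bars on the left and above them on the right.

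The paralogs MRPS18A, MRPS18B and MRPS18C, which resemble the same bacterial protein and occupy different places in the ribosome, differed in their values. MRPS18C is the one counted above as its direct counterpart. MRPS18B had 61.00 CPM with PF, 84.3 with 2% PEGDA, 82.7 with 3% PEGDA and 137 in 2D, with PF 2.24-fold (95% counting interval 2.08 to 2.42) below 2D. MRPS18A, which sits in the large subunit, had 38.03 CPM with PF, 47.7 with 2% PEGDA, 52.8 with 3% PEGDA and 56.5 in 2D, and PF was 1.49-fold (95% counting interval 1.34 to 1.65) below 2D. MRPS18C had 14.8 CPM with PF, 17.7 with 2% PEGDA, 22.1 with 3% PEGDA and 18.1 in 2D. It was highest in PF+3%PEGDA, which exceeded 2D by 1.22-fold (95% counting interval 1.03 to 1.45), whereas MRPS18B in that gel was 1.65-fold (95% counting interval 1.54 to 1.78) below 2D and those 2 intervals of the ratio did not overlap. Genes on the other strand overlap 40.2% of the exonic bases of MRPS18C (ABRAXAS1) and 47.0% of those of MRPS18A (RSPH9), where reads cannot be told apart without strand. ABRAXAS1 had 10.5 CPM with PF, 9.79 with 2% PEGDA, 9.46 with 3% PEGDA and 6.34 in 2D, and so lay above 2D in every gel. RSPH9 had 1.02 CPM with PF, 1.03 with 2% PEGDA, 1.10 with 3% PEGDA and 2.66 in 2D. The part of these neighbours in the paralogs' ratios was not tested, and no other gene overlapped the exons of MRPS18B.

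MRPL12, a stalk protein that also binds the mitochondrial RNA polymerase, had 64.4 CPM with PF, 80.7 with 2% PEGDA, 71.8 with 3% PEGDA and 113 in 2D. PF was 1.76-fold (95% counting interval 1.63 to 1.90) below 2D. Since 66.6% of its 50-base stretches also occur in the overlapping gene AC139530.2, its counts depend on how shared reads were assigned. It was the one member with more than 50% shared sequence. The mitochondrial RNA polymerase gene POLRMT had 67.5 CPM with PF, 68.6 with 2% PEGDA, 57.8 with 3% PEGDA and 85.9 in 2D, with a log2 ratio of -0.35 in PF against 2D.

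At 3 loci a member could be set beside a neighbour. The span of MRPS6 (chromosome 21, 34073224 to 34143034, plus strand, GENCODE release 29) holds SLC5A3, a myo-inositol transporter gene on the same strand that covers 6.4% of MRPS6 exonic bases. SLC5A3 had 352 CPM with PF, 398 with 2% PEGDA, 562 with 3% PEGDA and 92.3 in 2D, in the same order over the libraries as MRPS6. Its log2 ratio of PF+3%PEGDA to 2D was 2.60, against 1.23 for MRPS6. The deposited MRPS6 values were not all whole numbers, and how reads were shared between these genes was not tested.

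MRPS25 (chromosome 3, 15042460 to 15065335, minus strand) has 22.2% of its exonic bases overlapped by NR2C2, a nuclear receptor gene on the other strand, and without strand the reads cannot be told apart there. NR2C2 had 109 CPM with PF, 68.7 with 2% PEGDA, 75.1 with 3% PEGDA and 56.00 in 2D. Both genes were highest in the PF gel, but NR2C2 was lowest in 2D and MRPS25 lowest in PF+3%PEGDA. MRPS11, the head-to-head partner of MRPL46, had 26.6 CPM with PF, 37.2 with 2% PEGDA, 31.99 with 3% PEGDA and 31.7 in 2D. Although their starts lie 34 nt apart, the mean log2 ratio of the EPCaTs to 2D was -1.06 for MRPL46 and 0.00 for MRPS11. Other genes overlap 11.3% of the exonic bases of MRPL46 (AC013489.1, same strand) and 9.2% of those of MRPS11 (AC013489.3, other strand). The part of these overlaps in the values was not tested. NDUFS6, which begins beside MRPL36, had 32.4 CPM with PF, 37.1 with 2% PEGDA, 26.3 with 3% PEGDA and 36.7 in 2D. NDUFB5, beside MRPL47, had 53.2 CPM with PF, 80.5 with 2% PEGDA, 91.8 with 3% PEGDA and 55.9 in 2D, so that 2D was not the highest library for it as it was for MRPL47.

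**Figure D4:**
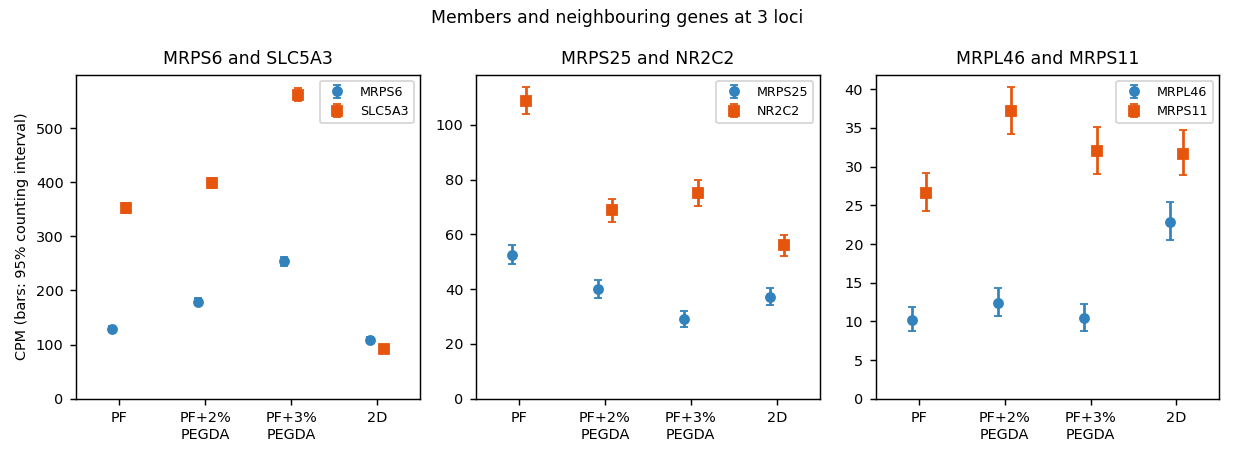
CPM of a member and its neighbour in the 4 libraries at 3 loci, with bars for the 95% counting interval. MRPS6 and SLC5A3 run in the same order with 3% PEGDA highest, MRPS25 and NR2C2 are both highest in the PF gel, and MRPL46 is highest in 2D while MRPS11 is not.

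Members whose promoter window held the YY1-type letters were lower in the EPCaTs than members whose window did not, a split looked at after the ratios were known. In PF against 2D the median log2 ratio was -0.92 over the 20 with a match, ranging from -1.61 to -0.18, and -0.50 over the 49 without, ranging from -1.50 to 0.50. The ranges overlapped over most of their width. In PF+2%PEGDA against 2D the medians were -0.44 and -0.23, and in PF+3%PEGDA against 2D -0.50 and -0.29. With length and GC trends removed, the PF medians were -0.74 and -0.24. In PF+3%PEGDA against PF the medians were 0.28 and 0.29. For the ETS-type letters the PF medians were -0.57 over 29 with a match and -0.60 over 40 without. The other motifs were split too, with PF medians given with and without a match. They were -0.55 and -0.74 for SP-type, -0.69 and -0.58 for NRF1-type and -0.59 and -0.62 for the CCAAT box. For the TATA box they were -0.895, over 2 members, and -0.58. Transcripts of the factors had log2 ratios in PF against 2D of -0.43 for YY1, 0.32 for the ETS factor subunit GABPA and -0.67 for its partner GABPB1. The part of these factors in the members' ratios was not tested.

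Genes for ribosomal proteins of the cytosol were lower still in the PF gel. Of 84 such genes, 58 (69.0%) were lower and 0 higher past 2-fold in PF against 2D, with a median log2 ratio of -1.27. The shares of all measured genes were 12.0% lower and 16.5% higher. In the PEGDA gels their median against 2D was -0.28 with 2% and -0.30 with 3%, close to the members' values. Against PF, their medians were 0.95 and 0.94, above those of the members at 0.38 and 0.28.

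The 77 nuclear genes for oxidative phosphorylation subunits, whose partners the mitoribosome makes, had a median log2 ratio of -0.42 in PF against 2D, with 8 lower and 0 higher past 2-fold. The 8 are 10.4% of the list, no larger a share than the 12.0% of all measured genes. By the interval 58 were lower (75.3%, against 37.6% of all measured genes) and 9 higher (11.7%, against 39.3%). In the PEGDA gels against 2D their median was near 0, at 0.07 and 0.01, where the members stood at -0.33 and -0.38. Genes of the TCA cycle and the porins, taken as a rough measure of mitochondrial content, had medians of -0.10, 0.21 and 0.16 over 21 genes. By the interval 8, 11 and 11 of these were higher (39.3%, 35.5% and 35.7% of all measured genes). Lower were 10, 6 and 7 (37.6%, 35.8% and 35.9%). VDAC1, the main porin of the outer membrane, was the gene of this list furthest above 2D. It had 183 CPM with PF, 207 with 2% PEGDA, 201 with 3% PEGDA and 102 in 2D, about 2-fold above 2D in the PEGDA gels. No test of these differences between lists was possible with 1 library per group.

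Of the other parts of mitochondrial translation, the factors were mostly lower in the EPCaTs, and the tRNA synthetases were mixed in PF and more often lower than higher with PEGDA. Of the 5 mitoribosomal protein genes with other symbols, DAP3, PTCD3, AURKAIP1, CHCHD1 and GADD45GIP1, only GADD45GIP1 was past 2-fold in PF against 2D, and their median was -0.37. GADD45GIP1, a large subunit protein, had 121 CPM with PF, 182 with 2% PEGDA, 195 with 3% PEGDA and 287 in 2D. Translation factors had a median of -0.50 over 16 genes in PF against 2D. By the interval 11 were lower (68.8%, against 37.6% of all measured genes) and 1 higher (6.2%, against 39.3%). Past 2-fold 0 were lower and 0 higher, against 12.0% and 16.5%. TUFM, the elongation factor that brings tRNA to the ribosome, had 166 CPM with PF, 191 with 2% PEGDA, 177 with 3% PEGDA and 285 in 2D. GFM1, which moves the ribosome along, had 32.4 CPM with PF, 29.6 with 2% PEGDA, 28.5 with 3% PEGDA and 50.2 in 2D. The 17 mitochondrial tRNA synthetases, which charge those tRNAs, had a median of -0.29 in PF against 2D. By the interval 8 were lower (47.1%) and 7 higher (41.2%). These shares are near the 37.6% and 39.3% of all measured genes, so the counts are not a result about the list. With 2% PEGDA 11 were lower (64.7%, against 35.8% of all measured genes) and 4 higher (23.5%, against 35.5%). With 3% PEGDA 10 were lower (58.8%, against 35.9%) and 3 higher (17.6%, against 35.7%).

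Assembly factors of the mitoribosome had a median log2 ratio of -0.48 over 28 genes in PF against 2D. By the interval 19 were lower (67.9%, against 37.6% of all measured genes) and 1 higher (3.6%, against 39.3%). Past 2-fold 4 of 28 were lower and 0 higher. That is 14.3%, near the 12.0% of all measured genes, so the count past 2-fold is not a result about the list. The 4 were C1QBP, MPV17L2, DDX28 and TRUB2. C1QBP, a matrix protein needed for mitochondrial translation, had 65.02 CPM with PF, 101 with 2% PEGDA, 95.02 with 3% PEGDA and 174 in 2D. DDX28, an RNA helicase of large subunit assembly, had 7.20 CPM with PF, 10.2 with 2% PEGDA, 10.1 with 3% PEGDA and 18.9 in 2D. TRUB2, a pseudouridine synthase, had 41.9 CPM with PF, 42.5 with 2% PEGDA, 38.2 with 3% PEGDA and 85.4 in 2D and was below 2D by a like amount in each gel. RBFA, of small subunit maturation, had 8.46 CPM with PF, 7.67 with 2% PEGDA, 4.40 with 3% PEGDA and 14.8 in 2D, and its log2 ratio of PF+3%PEGDA to 2D was -1.74.

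Genes of mitochondrial transcription and RNA handling had a median of -0.33 over 20 genes, with 2 lower past 2-fold in PF against 2D, SLIRP and PNPT1, again a share (10.0%) near that of all genes. SLIRP, which stabilises mitochondrial messages together with LRPPRC, had 10.1 CPM with PF, 23.6 with 2% PEGDA, 24.6 with 3% PEGDA and 26.9 in 2D. The PF library alone was low for SLIRP, whereas LRPPRC had 119 CPM with PF, 101 with 2% PEGDA, 103 with 3% PEGDA and 177 in 2D, with all gels below 2D. Of 11 genes for replication of mitochondrial DNA, 1 was lower and 2 higher past 2-fold, against 12.0% and 16.5% of all measured genes. TWNK, the replicative helicase, had 18.2 CPM with PF, 14.7 with 2% PEGDA, 15.99 with 3% PEGDA and 42.8 in 2D, and DNA2, a nuclease of the nucleus and mitochondria, had 21.3 CPM with PF, 12.05 with 2% PEGDA, 7.48 with 3% PEGDA and 4.29 in 2D, at opposite ends of that list.

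Import and folding genes had a median of -0.44 over 32 genes in PF against 2D, with 4 lower and 1 higher past 2-fold. The 4 are 12.5% of the list, about the share of all measured genes (12.0%). By the interval 25 were lower (78.1%, against 37.6% of all measured genes) and 5 higher (15.6%, against 39.3%). HSPA9, the chaperone that pulls imported chains into the matrix, had 240.4 CPM with PF, 216 with 2% PEGDA, 213 with 3% PEGDA and 595 in 2D. TIMM44, which holds it to the import channel, had 66.4 CPM with PF, 63.9 with 2% PEGDA, 50.8 with 3% PEGDA and 146 in 2D. Both were lower than 2D by more than 2-fold in PF, as were the carrier chaperones TIMM9 and TIMM10, at log2 ratios of -1.29 and -1.08. SPG7, a subunit of an inner membrane protease, was higher at 1.02.

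Among 14 regulators of mitochondrial content, 10 were lower by the interval in PF against 2D (71.4%, against 37.6% of all measured genes). By the same measure 3 were higher (21.4%, against 39.3%). Past 2-fold 1 was lower and 1 higher, each a smaller share than among all measured genes. The lower one was MYC, a transcription factor known to act on ribosomal and mitochondrial genes, with 83.98 CPM with PF, 90.6 with 2% PEGDA, 82.5 with 3% PEGDA and 323 in 2D. The higher was BNIP3, a receptor for the removal of mitochondria by autophagy and a known target of hypoxia signalling, with 177 CPM with PF, 253 with 2% PEGDA, 311 with 3% PEGDA and 45.6 in 2D. Its relative BNIP3L had 209 CPM with PF, 293 with 2% PEGDA, 348 with 3% PEGDA and 111 in 2D. Both were higher with 2% PEGDA than with PF and higher again with 3%. PPRC1, a coactivator of mitochondrial genes, had 37.6 CPM with PF, 25.1 with 2% PEGDA, 25.02 with 3% PEGDA and 70.03 in 2D, and ESRRA, a nuclear receptor of the same programme, had 72.4 CPM with PF, 57.3 with 2% PEGDA, 55.98 with 3% PEGDA and 112 in 2D, each highest in 2D. NRF1, which gave its name to the motif above, had 20.9 CPM with PF, 20.7 with 2% PEGDA, 17.8 with 3% PEGDA and 30.9 in 2D.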

How the data were processed

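One RNA-seq library was measured for each of the 3 gels and for the 2D coculture. The deposited values were estimated counts per gene (expected counts), made by the authors with FastQC, STAR and Partek on hg38, per the submitters' processing notes. Versions, the counting method and the annotation are not given in the sources used here. Between 13.8% and 14.9% of values lay over 0.05 from a whole number, and all were rounded. Totals were 13760301 to 15687894 counts per library.

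Genes with at least 1 CPM in at least 1 library were kept (14851) and scaled by TMM in edgeR 4.0.16 (R 4.3.3). A log2 ratio used a prior count of 0.5. The 95% interval of a ratio was the exact Clopper-Pearson interval (scipy 1.17.1) and covers counting error only. A call needed at least 2-fold and an interval that excluded equality. The procedure was tested on simulated data. Transcript length, GC content, overlaps and shared 50-mers came from GENCODE release 29, in which 16628 of 17791 symbols were found, among them all 78 members. Promoter sequences came from RefSeq. Trends on length and GC were removed, where stated, as running medians over 501 genes.

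The members and lists were chosen with earlier results of these data known. The members named were the 5 highest and 5 lowest by mean log2 ratio of the EPCaTs to 2D and by PF+3%PEGDA against PF. To these came the 5 most and 3 least abundant per length, every member past 2-fold, the MRPS18 paralogs, MRPL12, MRPL58 and MRPS36. Genes of the other lists named beyond those furthest from 0, and neighbours at the loci, were chosen after their values were seen. Results were recomputed with size factors of DESeq2 1.42.0, with total counts, and with other filters, prior counts and folds, removed trends, and members that overlap other genes left out.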

Additional observations from a re-analysis of the deposited data

How the results depend on the processing

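With 1 library per group the spread between tissues is unknown and no replicate could be left out. No paired analysis was possible because each group had 1 library. Under DESeq2 size factors, no filter, a 5 CPM filter, a prior count of 2 and the omission of MRPL12, medians and counts of members stayed within the limits set for a change. Of the medians and counts under alternatives, 149 moved little and 19 moved. The 149 include counts between gels that were 0 under both settings. A change of direction was defined for medians only, and 0 medians changed direction.

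In PF against 2D, scaling by total counts gave a median of -0.435 and 6 members lower past 2-fold, with the median of all measured genes at 0.20. Removal of the length and GC trends gave medians of -0.415 there, 0.188 in PF+2%PEGDA against PF and 0.087 in PF+3%PEGDA against PF. Leaving out members with 10% or more overlap or shared 50-mers, chosen after seeing the data, kept 52 members, with 9 lower in PF against 2D and 3 lower in PF+3%PEGDA against 2D. By a 4-fold rule 0 members were lower in PF against 2D (3.11% of all measured genes), and 0 lower (3.14%) and 0 higher (4.55%) in PF+3%PEGDA against 2D. By a 1.5-fold rule 41 were lower in PF against 2D (22.2% of all measured genes). With 2% PEGDA against 2D, 19 were lower (18.3%) and 2 higher (20.6%), and with 3% against 2D 26 lower (19.6%) and 2 higher (20.6%). Against PF, 9 were higher with 2% (8.55%), and 9 higher (10.9%) and 2 lower (15.3%) with 3%. With 3% against 2% PEGDA, 1 was lower (4.92%). Fewer members, or another fold in the rule, set the counts of the last 3 alternatives. Scaling by total counts shifts every log2 ratio of a comparison by the same amount, so members and all measured genes moved together. For trends the cause was not tested.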
